A study of Mus musculus with 2 samples.

Results

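The genes described here are 44 genes of matrix glycoproteins and proteoglycans, the secreted and cell-surface proteins that, with collagens, make up the material around cells. They were chosen by gene name and read from the probe sets that name only that gene in the array's annotation. Of the 44 genes, 41 had at least 1 such probe set and 88 probe sets in all, among 18193 genes on the array that had one. Fbn1, Efemp2 and Spp1 were not analysed here. Of the 41 genes, 7 lay at or below the floor of both arrays, and the other 34 were measured in at least 1 of them.

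The cells came from otocysts, the vesicles from which the inner ear forms, of mouse embryos at stage E10.5. All embryos were heterozygous for the transgene Tg(ETAR-EGFP)14Imeg, so both groups carry the reporter and were parted by whether a cell fluoresced. After trypsin dissociation and propidium iodide staining, cells were sorted into EGFP-positive (EGFP+) cells, which the labels place mainly in ventral and dorsomedial otocyst, and EGFP-negative (EGFP-) cells, which include the dorsolateral otocyst that lacks EGFP. The labels call both populations otocyst epithelial cells and name no sort marker other than EGFP. Each group was measured on 1 array, and how many embryos were pooled is not stated in the labels.

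Matrix proteins fall into classes with different work. Fibrillins, elastin, fibulins, emilins and microfibril-associated proteins build elastic fibres and microfibrils, fibronectin and matricellular proteins such as periostin govern adhesion, and small leucine-rich proteoglycans such as lumican, decorin and biglycan bind collagen fibrils. Aggrecan, brevican and neurocan bind hyaluronan with the help of link proteins, whereas glypicans and syndecans hold heparan sulfate chains at the cell surface, where these bind growth factors. In the embryo most fibrous matrix is made by mesenchyme, and epithelia contribute mainly basement membrane and cell-surface proteoglycans.

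Values are MAS5 signals on a linear scale. The floor of each array was the 40th percentile of its signals, 10.4 in EGFP+ and 12.4 in EGFP- cells. A difference is given as the log2 ratio of EGFP+ over EGFP- signal, with signals under the floor raised to it, and was counted from 2-fold upwards. With 1 array per group there was no spread between samples to test against, so no p-value is given and the comparison describes these 2 libraries. Probe sets of the same gene differed in log2 ratio with an SD of 0.315 over 5638 genes, and of 0.411 at mean signals under 50. The array median signal was 17.6 in EGFP+ and 20.6 in EGFP- cells, and the ratio of 3-prime to 5-prime signal of the Actb control was 1.34 and 1.22, and that of the Gapdh control 0.819 and 0.849. Where 1 signal was under the floor the log2 ratio uses the floor, and the fold, written as at least N-fold, uses the higher of the floor and the highest bacterial control.

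Both libraries held otic epithelium, as all 18 measured otic markers were above the floor in each. The EGFP- library also held signals that its epithelial label does not cover, with 10 erythroid, 16 leukocyte, 16 endothelial and 15 hindbrain markers above the floor, against 4, 6, 5 and 6 in the EGFP+ library. Of all 18193 genes with a probe set, 12633 were above the floor in EGFP- and 12410 in EGFP+ cells. The EGFP+ library held globin signal too, with Hbb-y at 2121.4 there and 6191.1 in EGFP- cells. Centring the arrays on the otic markers, a scaling chosen after seeing the data, lowers every log2 ratio by 1.36, so any ratio between 0 and that value that was measured above the floor in both arrays changes sign under it.

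Most of the matrix genes that differed were higher in EGFP- cells. Of the 34 measured genes, 11 (32.4%) were at least 2-fold higher there, against 7.63% of 13362 genes measured on the array. In the other direction stood Cnmd and Matn1 alone, 5.88% against 2.9% of all genes, and the lower bound of Matn1 moved to -0.25 when arrays were centred on otic epithelium markers, which leaves its direction there undetermined. Of the remaining 21 matrix genes, 19 were within 2-fold, and Fbln5 and Bcan had 1 signal under the floor and bounds short of 2-fold, so whether they passed it is unknown. The median log2 ratio was -0.48 for the 34 genes, or -0.41 without the 4 that are bounds, and 0.00 for all genes. At 4-fold, 8 matrix genes were higher in EGFP- cells, where 2.53% of all genes were, and 1 in EGFP+ cells, where 0.277% were. Of the 8, Fbln2, Efemp1 and Hapln1 had EGFP+ signals near the floor, at 17, 12.9 and 15.1. With the floor at the 60th percentile their log2 ratios were -1.92, -1.26 and -1.28, short of 4-fold. Emilin1, Fbln5 and Bcan, 3 of the 34, were above the floor only in EGFP- cells, as were 7.12% of all genes. In bulk samples such as these, fewer cells of a type and less RNA per cell cannot be told apart.

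**Figure D1:**
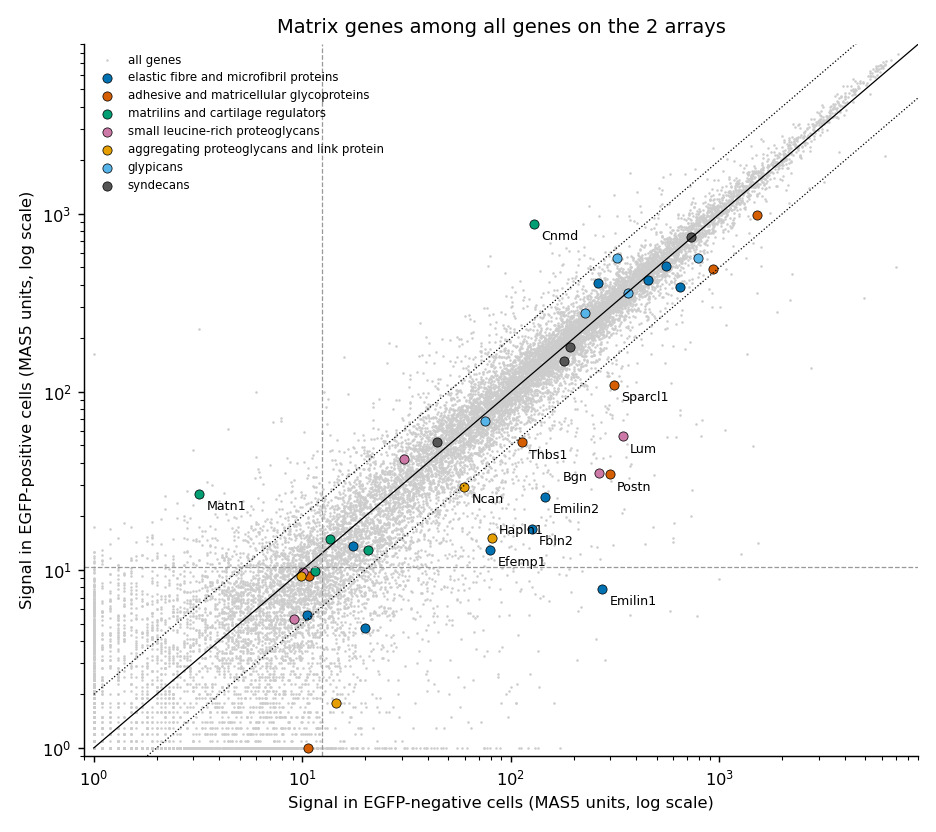
Signal of every gene in EGFP- cells (x axis) against EGFP+ cells (y axis), both in MAS5 units on log scales with signals under 1 drawn at 1. Grey points are all genes and coloured points the 41 matrix genes by class. The solid line marks equal signal, dotted lines 2-fold, and dashed lines the floors. The labelled genes past 2-fold lie mostly below the diagonal, with Cnmd and Matn1 above it.

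The 9 glypicans and syndecans were all within 2-fold, and 89.5% of all measured genes were not past 2-fold, so this count is near the background. They had a median log2 ratio of -0.02 and a range from -0.48 to 0.81. The 25 measured secreted members had a median of -0.92 and ranged from -4.72 to 2.77, and all 13 genes past 2-fold were among them. The contrast between classes was not tested, since the genes are not replicates of a condition.

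**Figure D2:**
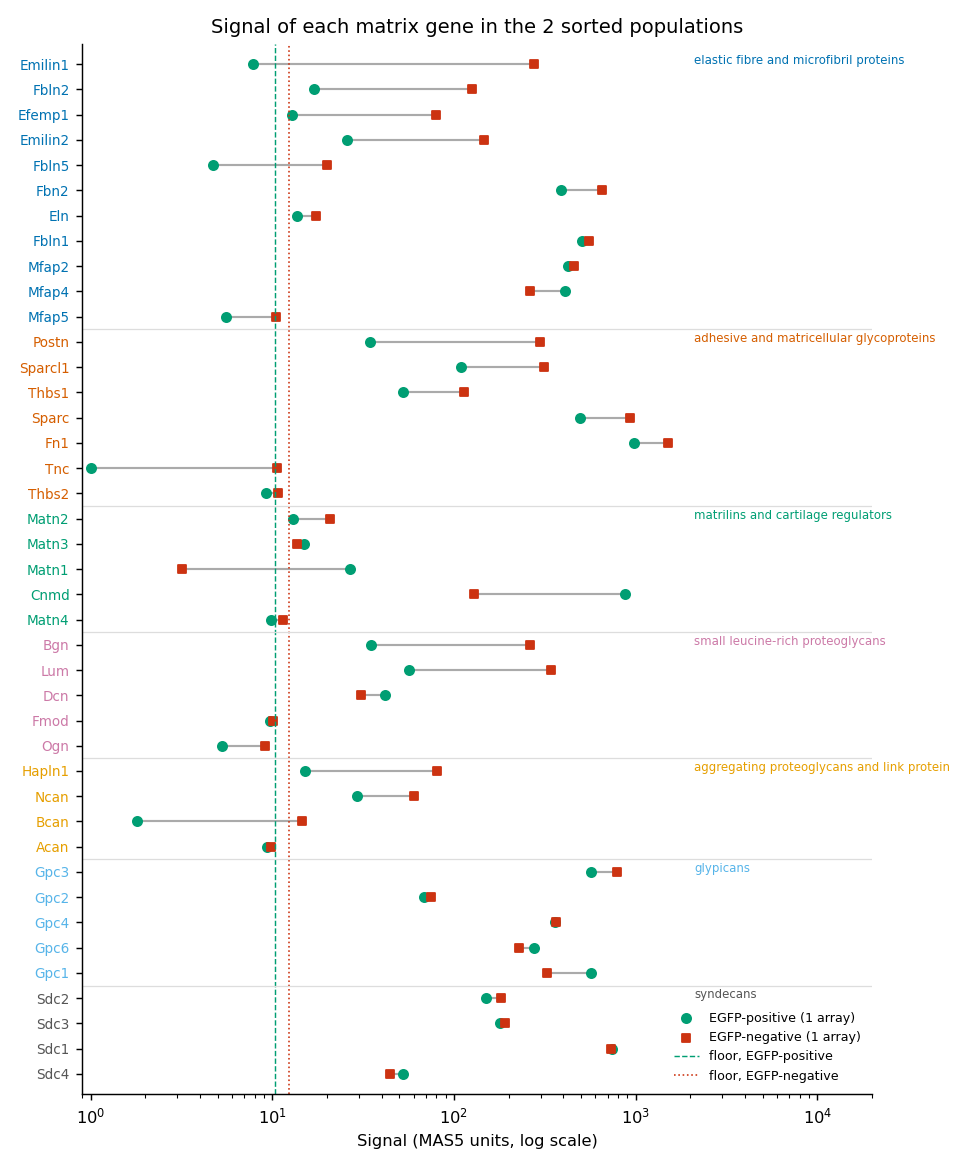
Signal of each of the 41 matrix genes in EGFP+ cells (green circles) and EGFP- cells (red squares), 1 array each, in MAS5 units on a log scale, grouped by class. Vertical lines are the floors of 10.4 and 12.4. The red square lies far to the right for Emilin1, Postn, Bgn and Lum, the order is turned for Cnmd and Matn1, and the markers of glypicans and syndecans lie close together.

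Elastic fibre and microfibril genes split into 4 that were higher in EGFP- cells and 6 that were not counted as different. Emilin1, which encodes an elastic fibre glycoprotein of the emilin family, had a signal of 274.3 in EGFP- cells and 7.8, under the floor, in EGFP+ cells. Taken against 12.3, the highest bacterial control of the EGFP+ array, the EGFP- signal was at least 22.3-fold higher. The second Emilin1 probe set was also at the floor in EGFP+ cells, with a log2 ratio of -2.89 taken against that floor. Its relative Emilin2 read 146.1 against 25.7, which was 5.68-fold higher in EGFP- cells. Among the fibulins, which link elastic fibres to other matrix proteins, Fbln2 read 125.8 in EGFP- and 17 in EGFP+ cells, a 7.4-fold difference. Efemp1, which encodes fibulin-3, read 79.5 against 12.9, 6.16-fold, and 12.9 lies close to that array's floor.

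Fbln1 and Fbln5 were not counted as different. Fbln1 had signals of 551.4 in EGFP- and 508.8 in EGFP+ cells, and its 3 probe sets had log2 ratios between -0.28 and -0.12. Fbln5, which is needed for elastic fibre assembly, read 19.9 against 4.7, under the floor, which makes it at least 1.62-fold higher in EGFP- cells, and with the floor at the 20th percentile its log2 ratio was -2.08. Fbn2, which encodes the fibrillin of embryonic microfibrils, read 649.5 in EGFP- and 386 in EGFP+ cells, 1.68-fold apart, with -0.84 on the log2 scale for the other probe set. Eln, the elastin gene, was near the floor in both, at 17.4 and 13.7.

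Of the microfibril-associated proteins, Mfap2 had 455.3 in EGFP- and 425.5 in EGFP+ cells. Its other probe set read 49 against 14.8, a log2 ratio of -1.73, so the 2 probe sets of Mfap2 disagreed. Mfap4 was the only elastic fibre gene with the higher signal in EGFP+ cells, at 407.6 against 261.7, or 1.56-fold, and centring on otic epithelium markers turned its sign. Mfap5 lay at the floor in both arrays on both of its probe sets.

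The 5 adhesive and matricellular genes that could be measured all had the higher signal in EGFP- cells, 3 of them past 2-fold. Postn, which encodes periostin, a matricellular protein of mesenchyme and periosteum, had 298.7 in EGFP- and 34.4 in EGFP+ cells, 8.68-fold apart. Sparcl1, which encodes the SPARC-related protein hevin, read 312.1 against 109.2, or 2.86-fold. Thbs1, which encodes thrombospondin 1, an activator of latent TGF-beta, read 113.3 against 52.1, which is 2.17-fold, but the other probe set stood at -0.72 on the log2 scale.

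Fn1 and Sparc did not reach the limit. Fn1, the fibronectin gene, read 1514.5 in EGFP- and 980.2 in EGFP+ cells, a log2 ratio of -0.63 with the second probe set at -0.42. Sparc, which encodes a collagen-binding matricellular protein, read 929.2 against 490.9. Its log2 ratio of -0.92 lay just short of the limit, whereas the second Sparc probe set was past it at -1.17. Tnc, the tenascin C gene, and Thbs2, the thrombospondin 2 gene, lay at the floor in both arrays, at 1 and 10.6 for Tnc and 9.2 and 10.8 for Thbs2 in EGFP+ and EGFP- cells.

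Of the 3 measured small leucine-rich proteoglycans, Bgn and Lum passed 4-fold. Bgn, the biglycan gene, had a signal of 263.3 in EGFP- and 34.9 in EGFP+ cells, 7.54-fold apart. All 3 Bgn probe sets were past 4-fold, with the EGFP+ signal of the other 2 at the floor and log2 ratios of -4.17 and -4.44 taken against that floor. Lum, the lumican gene, read 343.9 against 56.3, or 6.11-fold higher in EGFP- cells. Dcn, which encodes decorin and is a close relative of biglycan, went the other way at low signal, 41.9 in EGFP+ and 30.7 in EGFP- cells, a log2 ratio of 0.45 within the 2-fold limit, which centring on otic epithelium markers turned to -0.91. Fmod and Ogn, the fibromodulin and osteoglycin genes, were at the floor in both arrays on all of their 6 and 2 probe sets.

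Of the hyaluronan-binding proteoglycans and their link protein, Hapln1 and Ncan passed 2-fold. Hapln1, which encodes the link protein that fastens aggregating proteoglycans to hyaluronan, had 80.8 in EGFP- and 15.1 in EGFP+ cells, 5.35-fold apart. Its 4 probe sets all passed 2-fold, from -2.42 to -1.68 on the log2 scale. Ncan, the neurocan gene of developing neural tissue, read 59.9 against 29.3, or 2.04-fold, and its second measured probe set stood at -0.67. Bcan, the brevican gene, read 14.5 in EGFP- and 1.8 in EGFP+ cells, at least 1.18-fold higher in EGFP- cells, and with the floor at the 20th percentile its log2 ratio was -2.05. Acan, the aggrecan gene, was at the floor in both arrays with 9.8 and 9.3.

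Both genes past 2-fold in EGFP+ cells came from the class of matrilins and cartilage regulators. Cnmd encodes chondromodulin, a glycoprotein of cartilage that restrains blood vessel growth, and had a signal of 878.3 in EGFP+ and 129.1 in EGFP- cells. This 6.80-fold difference, a log2 ratio of 2.77 on 1 probe set, was above that of 99.9% of measured genes. Matn1, the gene of the cartilage protein matrilin 1, had 26.8 in EGFP+ cells and 3.2, under the floor, in EGFP- cells, which makes it at least 2.16-fold higher on its 1 probe set, a bound that no longer gives a direction under otic marker centring. Of the other cartilage genes, Acan and Matn4 lay at the floor in both arrays and Matn3 read 15 in EGFP+ and 13.6 in EGFP- cells. Hapln1, the link protein gene of the same class as Acan, was 5.35-fold higher in EGFP- cells. Matn2, a matrilin of many connective tissues, read 13 in EGFP+ and 20.7 in EGFP- cells.

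A list of chondrogenic markers was set beside these genes. Of its 11 genes, all above the floor in both libraries, 1 passed 2-fold in each direction and 9 were within it. The list had a median log2 ratio of 0.48, and 89.5% of all measured genes were not past 2-fold. Named after their values were seen, the genes of the list past it were Col9a2, with 108.2 in EGFP+ and 43.2 in EGFP- cells, and Pth1r, with 19.6 and 105.1. Taken by highest mean signal, the list gave Col9a1, with 1641.9 in EGFP+ and 1565.3 in EGFP- cells, Col2a1, with 2036.4 and 1086.5, and Sox9, with 339.7 and 242.8. Both collagens and Sox9 are also expressed by otic epithelium. The part of cartilage precursors in the Cnmd and Matn1 signals was not tested.

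To show what genes of either direction carry ahead of their starts, the 250 bases before the transcription start of Cnmd, Matn1 and 3 genes higher in EGFP- cells, with Sdc1 as a gene of near-equal signal, were read from RefSeq's promoter table for the GRCm38.p6 build. They lie at chr14:79662184-79662433 on the minus strand for Cnmd, chr4:130944135-130944384 on the plus strand for Matn1, chr5:30913536-30913785 on the plus strand for Emilin1, chrX:73483351-73483600 on the plus strand for Bgn, chr6:91212514-91212763 on the plus strand for Fbln2 and chr12:8771146-8771395 on the plus strand for Sdc1. Each is written 5′ to 3′ along the gene. Capitals mark matches, on either strand, to the E-box CANNTG, the GC box GGGCGG, the CCAAT box, the TATA box TATAAA or the SOX core ACAAAG. The genes and motifs were picked with the values known, and no matches to different motifs overlapped in these 6 windows.
Cnmd: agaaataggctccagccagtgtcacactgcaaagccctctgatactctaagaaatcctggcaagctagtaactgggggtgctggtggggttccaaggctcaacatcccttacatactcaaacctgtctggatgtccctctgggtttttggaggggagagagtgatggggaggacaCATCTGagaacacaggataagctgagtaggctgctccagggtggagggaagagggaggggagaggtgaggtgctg
Matn1: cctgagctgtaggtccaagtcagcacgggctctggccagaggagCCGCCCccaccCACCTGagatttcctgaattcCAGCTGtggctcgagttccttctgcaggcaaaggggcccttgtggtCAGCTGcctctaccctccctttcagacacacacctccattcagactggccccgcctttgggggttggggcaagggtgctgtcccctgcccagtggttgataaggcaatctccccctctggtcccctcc
Emilin1: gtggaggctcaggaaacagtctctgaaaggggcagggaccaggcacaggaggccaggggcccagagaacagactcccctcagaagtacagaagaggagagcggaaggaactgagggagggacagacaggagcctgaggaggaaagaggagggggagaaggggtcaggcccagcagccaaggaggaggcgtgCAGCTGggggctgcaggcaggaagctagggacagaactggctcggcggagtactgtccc
Bgn: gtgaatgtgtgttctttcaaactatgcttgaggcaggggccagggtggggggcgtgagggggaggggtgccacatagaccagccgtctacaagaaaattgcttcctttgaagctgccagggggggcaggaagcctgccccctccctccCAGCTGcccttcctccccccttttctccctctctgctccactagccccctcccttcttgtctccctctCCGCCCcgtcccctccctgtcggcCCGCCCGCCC
Fbln2: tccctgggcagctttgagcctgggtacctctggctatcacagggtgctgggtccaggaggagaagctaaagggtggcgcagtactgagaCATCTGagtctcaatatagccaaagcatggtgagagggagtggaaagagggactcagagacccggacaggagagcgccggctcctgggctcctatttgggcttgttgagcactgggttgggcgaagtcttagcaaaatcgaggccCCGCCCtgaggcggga
Sdc1: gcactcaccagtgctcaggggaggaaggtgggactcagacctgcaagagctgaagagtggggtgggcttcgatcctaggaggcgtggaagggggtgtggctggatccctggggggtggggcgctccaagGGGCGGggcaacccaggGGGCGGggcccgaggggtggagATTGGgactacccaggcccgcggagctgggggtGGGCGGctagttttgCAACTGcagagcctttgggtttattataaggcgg

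The Cnmd window held 1 E-box and no GC box, and the Matn1 window 3 E-boxes and 1 GC box. Emilin1 had 1 E-box alone, Fbln2 1 E-box and 1 GC box, and Bgn 1 E-box and 3 GC boxes. The Sdc1 window had 3 GC boxes, 1 CCAAT box and 1 E-box.

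A window was read for 31 of the 44 genes, some with several starts, and the same search was run over 17492 protein-coding genes. Windows on chromosome 18, where Fbn2 lies, were left out for the matrix genes but kept for the protein-coding genes. An E-box stood before 6 of 8 genes higher in EGFP- cells, both genes higher in EGFP+ cells, 6 of 12 not counted as different, Fbln5 and Bcan included, and 66.3% of protein-coding genes. The GC box was found for 5 of the 8, 1 of the 2, and 11 of the 12 others, against 45.8% of protein-coding genes. CCAAT stood before none of the 8 and 7 of the 12, against 39.5%. The letters TATAAA were in 2 of the 8, Ncan and Postn, and in none of the 12, against 13.7%, and the SOX core was in none of the measured genes' windows, against 17.0%. Of the 6 genes at the floor of both arrays with a window, all 6 had an E-box and 3 had a GC box. CCAAT and TATAAA each stood before 3 of these 6, and the SOX core before none. Genes with several windows had more chances of a match. These counts describe letters in the windows only.

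None of the 9 cell-surface heparan sulfate proteoglycans was past 2-fold, and neither were 89.5% of all measured genes, so this count is near the background. Of the glypicans, which are anchored to the membrane by a lipid, Gpc1 had the largest difference, 567 in EGFP+ and 323.3 in EGFP- cells, a log2 ratio of 0.81 on 1 probe set. Gpc3, a glypican that restrains growth and hedgehog signalling, read 787 in EGFP- and 565.5 in EGFP+ cells, or -0.48. Gpc4 read 359 and 365.2 in EGFP+ and EGFP- cells, with its 2 probe sets on either side of 0. Gpc6 read 275.9 and 226.6, and all 5 of its probe sets lay between 0.09 and 0.42. Gpc2, a glypican of developing neurons, read 68.5 and 75.2. Under centring on otic epithelium markers, the log2 ratios of all 5 glypicans were negative, from -1.84 for Gpc3 to -0.55 for Gpc1.

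The 4 syndecans, which span the membrane and act as co-receptors for growth factors and matrix, ranged only from -0.27 to 0.24 on the log2 scale. Sdc1, the main epithelial syndecan, had 739.7 in EGFP+ and 727.2 in EGFP- cells, read from a probe set whose array name marks probes that may match other sequences, and its other 3 probe sets lay between -0.30 and -0.13. Sdc2, which is common in mesenchyme, had 149.5 in EGFP+ and 180.5 in EGFP- cells, with the 3 measured probe sets from -0.60 to -0.27. Sdc3, the neural syndecan, read 179.3 and 191.1, and Sdc4, a focal adhesion component, 52.3 and 44.3. Centring on otic epithelium markers moved all 4 below -1.

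Probe sets could be compared for 18 of the 34 measured genes. For 14 of them all probe sets above the floor had the same sign, and the exceptions, Gpc4, Sdc1, Sdc3 and Matn3, had probe sets between -0.37 and 0.24. Of the 13 genes past 2-fold, 5 had several measured probe sets. All probe sets of Emilin1, Bgn and Hapln1 were past the limit, while Thbs1 and Ncan each had 1 probe set short of it. Postn, Lum, Emilin2, Fbln2, Efemp1, Sparcl1, Cnmd and Matn1 rested on 1 measured probe set each.

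**Figure D3:**
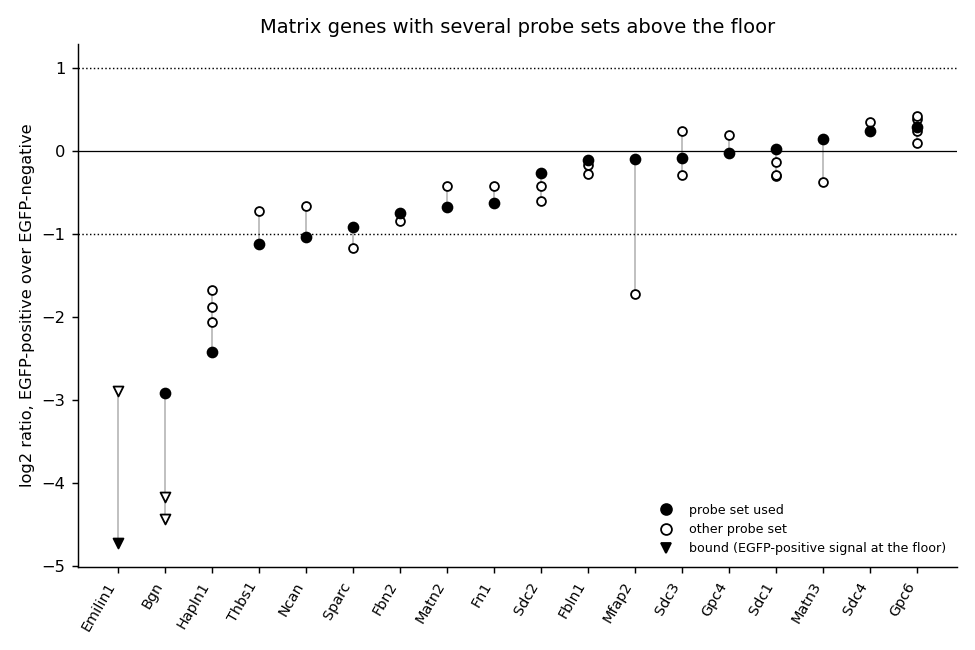
Log2 ratio of EGFP+ over EGFP- signal for each probe set above the floor in at least 1 array, for the 18 matrix genes with several. Filled symbols are the probe sets used and open symbols the others, triangles are ratios taken against the floor, and dotted lines mark 2-fold. Emilin1, Bgn and Hapln1 keep all symbols below the lower dotted line, and Mfap2 has 1 probe set near 0 and 1 past 2-fold.

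Other matrix genes were read to see whether the same pattern held outside the 44. Of 34 measured genes in a list of 45 other matrix glycoproteins, 12 passed 2-fold towards EGFP- and 5 towards EGFP+ cells. The shares of all measured genes were 7.63% and 2.9%. The list had a median log2 ratio of -0.49. Named by size of difference were Tgfbi, which encodes a TGF-beta-induced adhesion protein, with 1062.9 in EGFP- and 60.9 in EGFP+ cells, or 17.5-fold, and Pcolce, an enhancer of procollagen processing, with 562.4 against 55.7, or 10.1-fold. Vtn, the vitronectin gene, was at least 10.2-fold and Mmrn1, a multimerin of platelets and endothelium, at least 5.58-fold higher in EGFP- cells. The 5 genes of the other direction, named after their values were seen, were Fbln7, a further fibulin, with 66.3 in EGFP+ and 13.1 in EGFP- cells, Smoc1, with 168.6 and 43.7, Smoc2, with 45.9 and 15.8, Npnt, with 233.9 and 97.2, and Spock2, with 81.1 and 39.5. Smoc1 and Smoc2 encode calcium-binding relatives of SPARC, and Npnt encodes nephronectin, an integrin ligand of basement membranes. The EGFP- signals of Fbln7 and Smoc2, 13.1 and 15.8, lie near that array's floor of 12.4. The direction of Npnt and Spock2 turned under otic marker centring. Ccn1 and Mfge8, named for the highest mean signals within 2-fold, read 411.9 and 291.3 in EGFP+ against 322 and 267.8 in EGFP- cells.

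Of 19 measured genes among 25 other proteoglycans and their relatives, 4 were past 2-fold towards EGFP- cells and 1, Spock2, towards EGFP+ cells. The shares of all measured genes were 7.63% and 2.9%, and the list had a median log2 ratio of -0.32. Spock1, Spock2, Spock3 and Ecm2 are in both lists. The 4 were Cd44, a hyaluronan receptor, at least 9-fold higher, Tgfbr3, which encodes betaglycan, with 146.8 against 24.9, Srgn, the serglycin of blood cells, at least 4.70-fold, and Kera, the keratocan gene, at least 2.26-fold higher. Vcan, the versican gene, read 1089.7 in EGFP- and 872 in EGFP+ cells, and Agrn, the agrin gene, 524.8 and 700.6, both within 2-fold.

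Few enzymes that build glycosaminoglycan chains passed 2-fold. Of 39 measured genes in 3 lists for the linker, heparan sulfate, and chondroitin and dermatan sulfate, 36 were not past 2-fold, with a median of -0.02, close to the 89.5% of all measured genes not past it. None of the 7 linker genes was past 2-fold, with Ugdh at 657.6 and 663.9 and Uxs1 at 160.8 and 160.7 in EGFP+ and EGFP- cells. In the heparan sulfate list the only gene past 2-fold among 18 was Hs3st1, a sulfotransferase, with 149.9 in EGFP+ against 57.7 in EGFP- cells. Sulf1, which removes sulfate from heparan chains outside the cell, had 951 against 509.9, a log2 ratio of 0.90, and its relative Sulf2 had 1077.6 and 1121.6. Of 14 chondroitin and dermatan sulfate genes, 1 passed 2-fold in each direction. Dsel, a dermatan sulfate epimerase-like gene, was 2.47-fold higher in EGFP+ cells at 259.5. Chst12, a chondroitin sulfotransferase, was 2.33-fold higher in EGFP- cells, at 31.2 against 13.4, which lies near the EGFP+ floor. The direction of Dsel turned under otic marker centring. Chsy1 and Chst11 read 802.7 and 149.7 in EGFP+ against 881.4 and 149.1 in EGFP- cells.

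Enzymes that cross-link elastic fibres or modify collagens had a median log2 ratio of -0.25 over 16 measured genes. The collagen prolyl hydroxylases P3h2 and P3h3 had the higher signal in EGFP- cells. P3h2 read 46.1 against 14.3, or 3.22-fold, and P3h3 52.7 against 19.3, or 2.73-fold. Each rested on 1 measured probe set, and 14.3 lies near the EGFP+ floor of 10.4. Plod2, a collagen lysyl hydroxylase, was 2.03-fold higher in EGFP+ cells at 608.8, with its second probe set at 0.65 on the log2 scale, a direction that turned under otic marker centring. Serpinh1, the collagen chaperone, had 2089.1 in EGFP- and 1365.3 in EGFP+ cells, and Ppib 2655 and 2767.5.

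**Figure D4:**
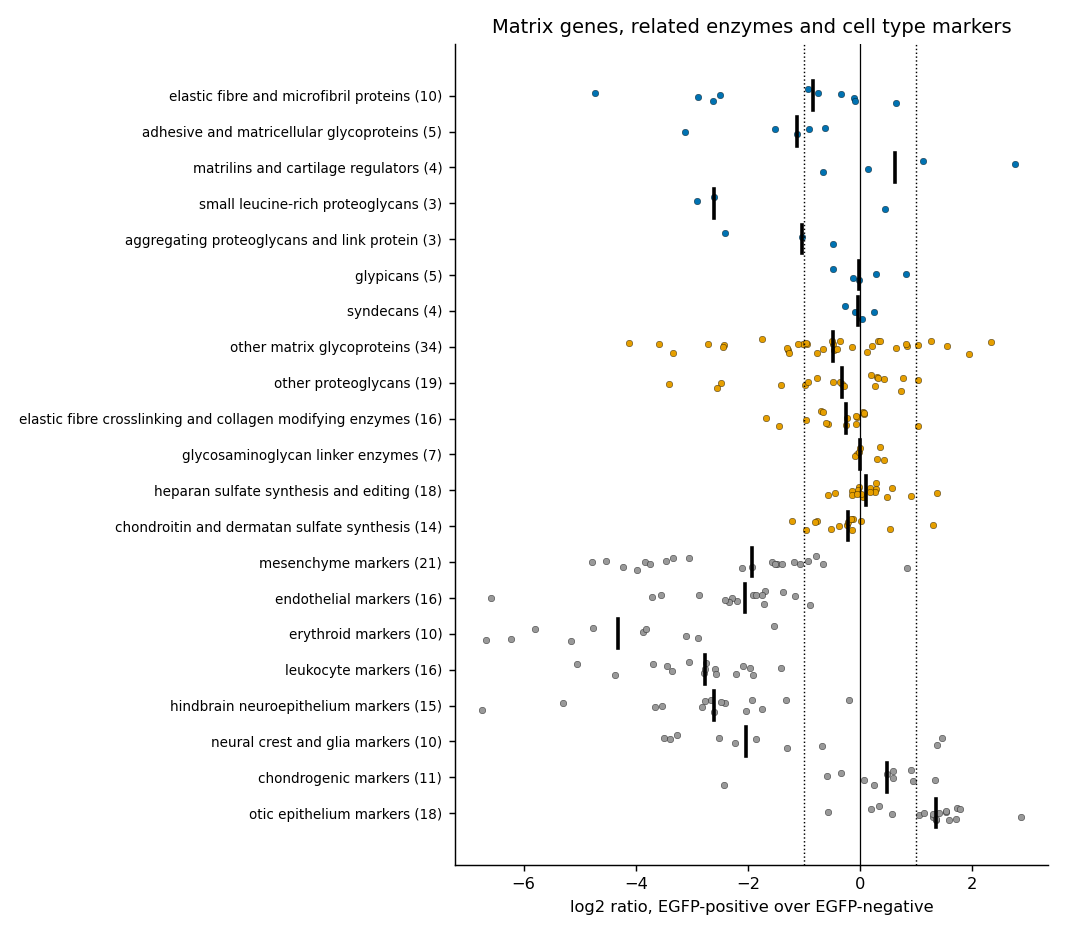
Log2 ratio of EGFP+ over EGFP- signal for each measured gene (points) and the list median (black bar), with the number of measured genes in parentheses. Blue marks the 7 classes of matrix genes, orange the related genes and enzymes, and grey the cell type markers, and dotted lines mark 2-fold. Glypicans, syndecans and the glycosaminoglycan enzymes gather near 0, mesenchyme markers have a median of -1.93, and otic epithelium markers have one of 1.36.

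Most matrix genes that differed shared their direction with markers of other cell types. Of 21 measured mesenchyme markers, 17 passed 2-fold towards EGFP- cells, against 7.63% of all measured genes, and none towards EGFP+ cells. The list's summed signal was 8212.5 in EGFP- against 2674.4 in EGFP+ cells, a 3.07-fold difference. The markers of highest mean signal were Vim, with 3154.8 in EGFP- and 1506.4 in EGFP+ cells, Pdgfrb, with 615.8 and 56.1, and Snai2, with 550.8 and 144.7. Of the 23 mesenchyme markers with a probe set, 21 were above the floor in EGFP- cells and 15 in EGFP+ cells. The 2 that were not measured lay at the floor in both arrays, and none of the 23 had a signal of 0 in either. The summed signal of all 7 adhesive and matricellular genes was 3189.2 against 1677, or 1.90-fold higher in EGFP- cells, and that of the small leucine-rich proteoglycans 657.1 against 148.1, or 4.44-fold.

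Other lists gave the following counts, beside 7.63% of all measured genes past 2-fold towards EGFP- and 2.9% towards EGFP+ cells. In EGFP- cells 15 of 16 endothelial, 10 of 10 erythroid, 16 of 16 leukocyte, 14 of 15 hindbrain and 7 of 10 neural crest markers were at least 2-fold higher, with summed signals of 1970.2 against 161.8, 21630.5 against 3000.2, 2090.7 against 153.6, 3249.5 against 202.1 and 1827.7 against 1861.6. The last sum is higher in EGFP+ cells through Erbb3, at 1405 against 511.1, 1 of 2 neural crest markers past 2-fold there, with Kit, named after its value was seen, at 266.6 against 103.3. In EGFP+ cells 14 of 18 otic epithelium markers were at least 2-fold higher, with a summed signal of 13718.4 against 6319.6. The otic markers of highest mean signal, Eya1, Epcam and Oc90, read 1664.7, 1609.9 and 939.8 in EGFP+ and 578.3, 538.6 and 1405.7 in EGFP- cells. The part of mesenchyme, endothelium, blood or neural cells in the matrix gene differences was not tested.

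**Figure D5:**
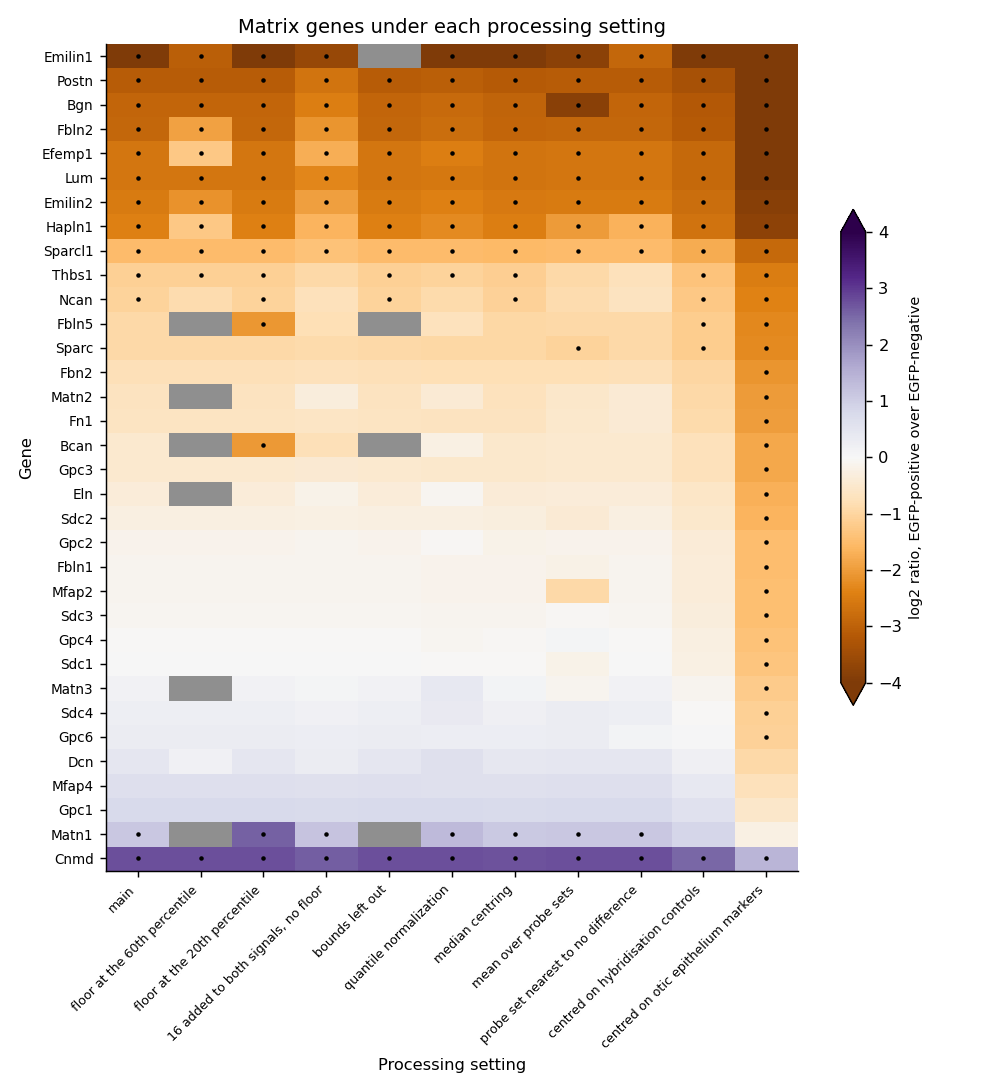
Log2 ratio of EGFP+ over EGFP- signal of the 34 measured matrix genes (rows) under each processing setting (columns), in colour from -4 to 4. A black dot marks 2-fold or more and dark grey marks a gene not measured under that setting. From Emilin1 to Sparcl1 a dot stands in every measured column, Cnmd has one in every column, and centring on otic epithelium markers puts a dot on all but 4 genes, Matn1 among those without.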

How the data were processed

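Both arrays were deposited as intensities on a linear scale, with 45101 probe sets each. MAS5 5.0 was used, per the submitters' processing notes. The mean signal after trimming 2% at each end was 100.0 in both. The genome build and scaling target are not given in the sources used here, and detection calls were not used.

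Probe sets were named from the platform annotation, with symbols updated through RefSeq gene identifiers: 34958 named 1 gene, 932 several (not used) and 9211 are unnamed here. Where a gene had several probe sets, the one with the highest mean over both arrays was used, and genes at the floor of both were left out. Log2 ratios use the floor. Folds written as at least N-fold use the higher of the floor and the highest of 27 bacterial control probe sets, 12.3 and 9.0. The members and lists were chosen with earlier results of these data known. All members may be named; of each other list of related genes the text takes up to 4 largest differences past 2-fold and 2 brightest within, and of each marker list the 3 brightest. Genes named outside this rule, to spell out counts of 5 or fewer, are marked in the text as chosen after their values were seen. With 1 array per group no test was run. The log2 ratio procedure was tested on simulated data, with 4-fold changes put only into genes of high signal. That run does not cover 2-fold calls near the floor. Alternatives changed floor, scaling, probe set and fold limit. Python 3.11.15, pandas 2.3.3 and numpy 2.4.6 were used.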

Additional observations from a re-analysis of the deposited data

How the results depend on the processing

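No paired analysis was possible because each group holds 1 array, and no array could be left out. At the 2-fold limit, the 11 genes higher in EGFP-negative cells became 9 to 14 and the median log2 ratio -0.73 to -0.35 in 9 of 10 settings. The exception, centring on otic epithelium markers, gave 29 genes and a median of -1.84, and a Matn1 lower bound of -0.25, which leaves its direction undetermined. It and centring on hybridisation controls were chosen after seeing the data, and put the median of all genes at -1.36 and -0.24. The 2 genes higher in EGFP-positive cells became 1 with the floor at the 60th percentile, without bounds, under both of these centrings and at a 4-fold limit, and 4 at a 1.5-fold limit. Of 13 genes past 2-fold, 10 kept that call wherever measured, and Matn1, Thbs1 and Ncan did not. The causes were not tested. Over the whole array, 388 genes were past 2-fold towards EGFP-positive and 1019 towards EGFP-negative cells. These counts became 237 and 478 with the floor at the 60th percentile, 711 and 1954 at the 20th, 238 and 647 with 16 added to both signals, 325 and 632 without bounds, 225 and 1442 with hybridisation controls, 19 and 11248 with otic markers, 1047 and 1934 at 1.5-fold and 37 and 338 at 4-fold. The share of calls in EGFP-positive cells was 27.6%, and 37.96% after quantile normalization, 13.5% with hybridisation controls and 0.169% with otic markers. Single-gene values moved by no more than the SD between probe sets in 271 cases and by more in 58. In 1 further case, the lower bound of Matn1, a value past 2-fold passed 0. Smaller ratios that passed 0, such as those of Mfap4 and Dcn under otic marker centring, are counted among the 271 and 58. Centring shifts every gene by the same amount, so under it these labels follow from the size of the shift. Leaving out bounds repeats the other values unchanged. The tally is thus in part fixed in advance and is no measure of single-gene stability. With the floor at the 20th percentile Fbln5 and Bcan were past 4-fold. Their EGFP-positive signals, 4.7 and 1.8, lay under the highest bacterial control of that array, 12.3. With 1 array per group, variation between embryos or sorts was not measured, and signals near the floor have no order.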
